A study of Mus musculus with 6 samples.

Results

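Blockade of the integrin αvβ8 at 7 days post injury (dpi) was examined by setting 1 single-nucleus RNA library of cortical lesions from mice given the antibody ADWA11 beside 1 library from wild-type mice without it (Ctrl). All barcodes of these libraries with at least 1000 UMIs (unique molecular identifiers, 1 per captured RNA molecule) and under 5% mitochondrial UMIs were taken, which gave 7906 Ctrl and 10914 ADWA11 nuclei, 18820 of the 60729 nuclei that pass the same limits in all 6 libraries. The series covers wild-type, ADWA11-treated and fibroblast Tgfbr2-deleted mice at 7 and 21 dpi after photothrombosis, in which light and an injected dye close cortical vessels. Both groups used here were labelled wild type and both carried the lesion, and no age is given in the labels. ADWA11 is an antibody that blocks αvβ8 and was injected on the day of injury and weekly after that. The labels give no treatment for Ctrl, and whether these mice received the isotype antibody used as control elsewhere in the study is not given in the sources used here. Only lesions were dissected and all nuclei with DNA stain were sorted, with no enrichment of a cell type. Each library pooled nuclei of 1 male and 1 female mouse, so the design has 1 library per side, no test across mice was possible, and no p-value is given.

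TGFβ is released bound to a latency peptide and stays silent until that peptide is opened. The integrin αvβ8, made of the αv chain (Itgav) and the β8 chain (Itgb8), holds the latent complex on the surface of glia and some stromal and immune cells and presents active TGFβ to nearby cells. In the brain this supply is known to keep microglia in their resting state and to steady developing vessels, and TGFβ drives fibroblasts towards matrix-making myofibroblasts.

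The Ctrl library held 64798965 UMIs in 9004 barcodes and the ADWA11 library 105241662 UMIs in 11894 barcodes, with a median of 6268 and 7877.5 UMIs per nucleus used. The 2 libraries shared 32 barcodes, 0.405% of Ctrl and 0.293% of ADWA11 nuclei. Nuclei with Xist and no Y-linked UMI were taken as female and nuclei with a Y-linked UMI and no Xist as male, 36.6% and 37.6% of Ctrl and 48.8% and 30.7% of ADWA11 nuclei, so that each sex stands for 1 mouse as far as the calls are right. Called doublets made up 7.72% of Ctrl and 9.85% of ADWA11 nuclei. The nuclei formed 19 clusters, which were grouped into 11 classes by raised marker genes, and every class had at least 5 raised markers of its own. Levels are given as CPM, the UMIs of a gene per 1000000 non-mitochondrial UMIs summed over all nuclei of a class in a library. A gene was counted as higher or lower in ADWA11 where its log2 ratio of CPM was at least 1 or at most -1, a 2-fold difference, and its 95% interval left out 0. All intervals cover counting error only, not differences between mice, and fewer nuclei of a type and less RNA per nucleus cannot be told apart in a summed level.

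The class shares asked which cells the lesion held with and without blockade. Myeloid nuclei were the most frequent, at 49.5% of Ctrl nuclei (3915 nuclei, 48.4 to 50.6) and 51.6% of ADWA11 nuclei (5630, 50.6 to 52.5), followed by fibroblasts at 30.8% and 28.4%. Oligodendrocyte precursors, the dividing glia that make new oligodendrocytes, held 6.69% of Ctrl nuclei (529 nuclei, 6.15 to 7.26) and 10.5% of ADWA11 nuclei (1142, 9.90 to 11.1), a log2 ratio of 0.65, 0.50 to 0.80, with values of 0.45 in female and 0.87 in male nuclei. Endothelial nuclei held 3.12% of Ctrl nuclei (247 nuclei, 2.75 to 3.53) and 1.96% of ADWA11 nuclei (214, 1.71 to 2.24), a log2 ratio of -0.67, -0.94 to -0.40, with values of -0.81 in female and -0.74 in male nuclei. Mural nuclei, the pericytes and smooth muscle of vessel walls, had a log2 ratio of -0.67, -1.13 to -0.22 (90 and 78 nuclei), and their interval in each sex alone included 0.

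Astrocytes differed by less than their counting interval, at 2.19% and 2.13% (log2 ratio -0.042, -0.33 to 0.25), and so did mature oligodendrocytes with 47 and 59 nuclei (log2 ratio -0.14, -0.71 to 0.45), dendritic nuclei (log2 ratio -0.30, -0.61 to 0.0097) and T and NK lymphocytes (log2 ratio -0.23, -0.55 to 0.10). With clusters made from log-normalised counts the astrocyte ratio was -0.43 (-0.66 to -0.20), which leaves out 0, and the dendritic interval left out 0 as well. Fibroblasts had a log2 ratio of -0.12, -0.20 to -0.041, and their interval in male nuclei alone included 0. Osteoblast-like nuclei, which carry bone-matrix genes, numbered 9 in Ctrl and 59 in ADWA11 (log2 ratio 2.25, 1.23 to 3.45). Clustering of log-normalised counts gave no such class: the cluster led by the same bone-matrix genes was named fibroblast there and held 250 Ctrl and 198 ADWA11 nuclei. Neurons numbered 148 in Ctrl and 43 in ADWA11 (log2 ratio -2.25, -2.77 to -1.75), but 88.4% of the ADWA11 neurons were called doublets, and the ratio was -0.83 in female and -3.78 in male nuclei. How much parenchyma beside the lesion each dissection took was not measured, so different shares of glia and neurons cannot be told apart from a different cut of the tissue.

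**Figure D1:**
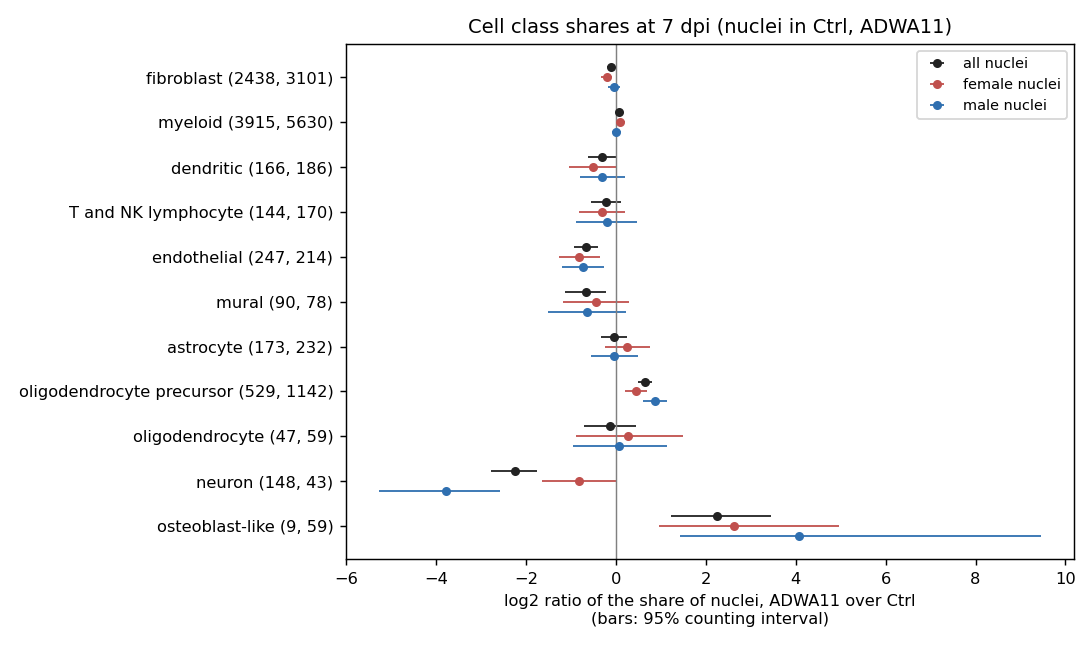
Log2 ratio of the share of nuclei, ADWA11 over Ctrl at 7 dpi, for 11 cell classes in all, female and male nuclei, with nuclei numbers of Ctrl and ADWA11 in brackets; bars are 95% counting intervals. Oligodendrocyte precursors lie above 0 and endothelial nuclei below 0 in all 3 sets of points.

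The integrin itself and the ligands it acts on were examined first. Itgb8 (chromosome 12, 119158022 to 119238802, minus strand, mm10) was detected in fibroblasts at 183 CPM in Ctrl and 207 CPM in ADWA11, in astrocytes at 164 CPM in Ctrl and 191 CPM in ADWA11 and in oligodendrocyte precursors at 136 CPM in Ctrl and 159 CPM in ADWA11. Its log2 ratios of 0.17, 0.22 and 0.22 were all short of 2-fold, the astrocyte value being -0.29 in female and 0.34 in male nuclei, and in myeloid nuclei it stood at 4.36 CPM in Ctrl and 4.43 CPM in ADWA11. The antibody acts on the protein, so these RNA levels do not measure the blockade. Itgav differed most in oligodendrocyte precursors, at 454 CPM in Ctrl and 198 CPM in ADWA11 (log2 ratio -1.20, -1.28 to -1.12). Itgb5, the β5 chain that also pairs with αv, was lower than in Ctrl in 5 of 7 classes, with log2 ratios of -1.35 in myeloid, -1.87 in dendritic, -1.06 in T and NK, -1.34 in astrocyte and -1.43 in oligodendrocyte precursor nuclei.

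Among ligands and latency proteins, Tgfb1, the isoform made by myeloid cells, stood at 135 CPM in Ctrl and 154 CPM in ADWA11 in myeloid nuclei (log2 ratio 0.20, 0.14 to 0.26). Tgfb3 was lower in fibroblasts, at 50.7 CPM in Ctrl and 20.6 CPM in ADWA11 (log2 ratio -1.30, -1.43 to -1.16), and so was Ltbp2, a microfibril protein of the latency-binding family (log2 ratio -1.76, -1.87 to -1.66). In oligodendrocyte precursors 3 of 8 measured ligand and latency genes were lower (3.48% of all genes tested), Tgfb2 at 66.2 CPM in Ctrl and 32.1 CPM in ADWA11 and, from few UMIs, Tgfb3 and Ltbp2. Ltbp2 there had a log2 ratio of -1.88, but 0.34 in female nuclei. Lrrc32, which anchors latent TGFβ to the cell surface, was higher in fibroblasts (log2 ratio 1.05) and lower in endothelial nuclei (-1.09).

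Of the receptors, Tgfbr1, the type I receptor that starts signalling, was lower in 3 classes. It stood at 1069 CPM in Ctrl and 511 CPM in ADWA11 in myeloid nuclei (log2 ratio -1.07, -1.09 to -1.04) and at 1804 CPM in Ctrl and 666 CPM in ADWA11 in dendritic nuclei (log2 ratio -1.44, -1.57 to -1.31). In astrocytes the log2 ratio was -1.02, but 0.011 in female and -0.57 in male nuclei, and the pooled value also holds nuclei with neither sex call. Tgfbr2, the ligand-binding type II receptor, had log2 ratios between -0.95 in oligodendrocyte precursors and 0.055 in endothelial nuclei and passed 2-fold in none of the 7 classes. Tgfbr3, the co-receptor betaglycan, was higher in fibroblasts, at 300.1 CPM in Ctrl and 662 CPM in ADWA11 (log2 ratio 1.14, 1.10 to 1.18).

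The signal carriers Smad2 and Smad4 stayed within 2-fold in every class in which they were measured. Several feedback inhibitors, which TGFβ itself induces, were lower. Pmepa1 (chromosome 2, 173224458 to 173276533, minus strand), which blocks the docking of Smads to the receptor, stood at 318 CPM in Ctrl and 16.0 CPM in ADWA11 in myeloid nuclei (log2 ratio -4.31, -4.42 to -4.20; -4.31 in female and -4.47 in male nuclei). Its log2 ratio was -3.41 in T and NK, -2.14 in astrocyte, -2.09 in dendritic and -1.34 in fibroblast nuclei, and short of 2-fold in oligodendrocyte precursor (-0.92) and endothelial nuclei (-0.49). Smad7, the inhibitory Smad that recruits ubiquitin ligases to the receptor, was lower in myeloid (-1.85), dendritic (-1.41) and astrocyte nuclei (-1.01). Skil, a Smad corepressor, was lower in myeloid (-1.56), T and NK (-1.50) and astrocyte nuclei (-1.53). In T and NK nuclei it stood at 169 and 59.9 CPM, against 137 and 60.0 CPM in all other nuclei.

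Over the 12 Smad and feedback genes, the count lower in ADWA11 was 5 of 12 measured in myeloid nuclei, 3 of 11 in astrocytes, 2 of 9 each in dendritic and in T and NK nuclei, and 1 each in fibroblasts (of 12), endothelial nuclei (of 11) and oligodendrocyte precursors (of 11), with 0 higher in any class. Among all genes tested, the share lower was 4.48% in myeloid, 2.85% in astrocyte, 2.28% in dendritic, 3.11% in T and NK, 3.24% in fibroblast, 1.51% in endothelial and 3.48% in oligodendrocyte precursor nuclei. The list medians ran from -0.55 in oligodendrocyte precursors and -0.52 in myeloid nuclei to -0.17 in fibroblasts, with medians of all genes between -0.032 and 0.074. Pmepa1 in all nuclei outside the astrocytes stood at 423 and 116 CPM, so its level in the class moved with that of the whole library, and the part of free RNA in the small classes was not tested.

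**Figure D2:**
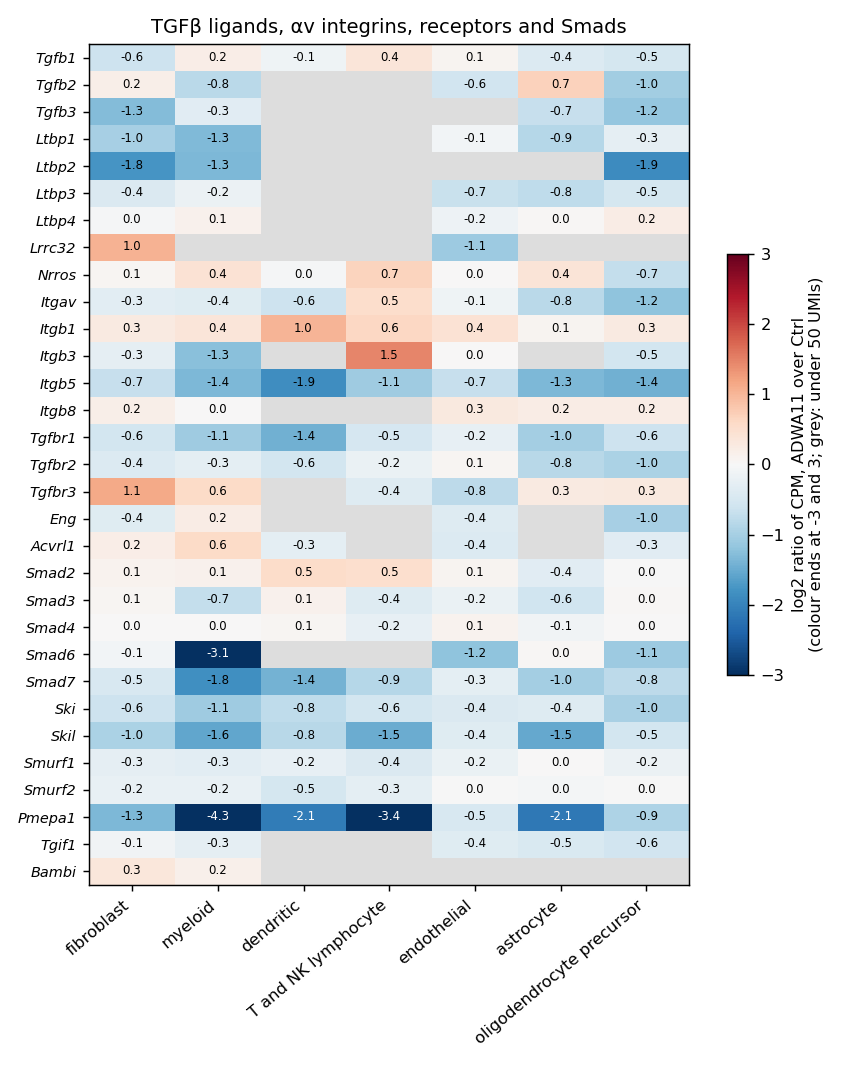
Log2 ratio of CPM, ADWA11 over Ctrl, for TGFβ ligands and latency proteins, αv integrin subunits, receptors, and Smads with their feedback inhibitors (rows) in 7 cell classes (columns); red is higher and blue lower in ADWA11, grey marks genes under 50 UMIs in both libraries together. Pmepa1 is below 0 in all 7 classes, from -0.49 to -4.31, while Itgb8 stays between 0.017 and 0.30 where measured.

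Myeloid nuclei, the microglia and macrophages of the lesion, held the largest counts, with 861 of 14842 genes tested higher in ADWA11 (5.8%) and 665 lower (4.48%). Several genes of resting microglia were lower, and several of lipid uptake and iron handling were higher. Of 15 homeostatic microglia genes, 8 were lower and 0 higher, with a median of -1.07 against 0.036 over all genes. Cx3cr1, the fractalkine receptor, stood at 265 CPM in Ctrl and 48.4 CPM in ADWA11 (log2 ratio -2.46, -2.53 to -2.38; -2.73 in female and -2.29 in male nuclei). Fcrls, an Fc receptor-like gene of microglia, stood at 425 CPM in Ctrl and 122 CPM in ADWA11 (log2 ratio -1.80, -1.85 to -1.76). Tmem119 (log2 ratio -3.37), a microglial membrane protein, Sall1 (-1.86), the transcription factor of microglial identity, Siglech (-1.71), Olfml3 (-2.25), Slc2a5 (-4.59) and Tgfbr1 made up the rest.

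The other 7 genes of the list were short of 2-fold. Csf1r, the receptor for the survival factor of all macrophages, stood at 402 CPM in Ctrl and 388 CPM in ADWA11, and Mertk, Selplg and Gpr34 were within 0.16 of 0 on the log2 scale. P2ry12, the purinergic receptor of resting microglia, stood at 237 CPM in Ctrl and 120.2 CPM in ADWA11 and just missed 2-fold (-0.98). The 8 microglia markers together summed to 666 CPM in Ctrl and 246 CPM in ADWA11, and the 9 macrophage markers to 2945 CPM in Ctrl and 4615 CPM in ADWA11.

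The 2 libraries filled the myeloid clusters differently. Cluster 3, with 6 of 8 microglia markers raised, held 43.7% of Ctrl and 1.17% of ADWA11 myeloid nuclei, cluster 2 held 35.9% and 11.7%, cluster 4 held 9.43% and 24.2%, cluster 7, led by cell cycle genes, held 7.71% and 13.6%, cluster 0 held 2.68% and 38.5%, and cluster 10 held 0.613% and 10.8%. A cluster that is mostly of 1 library may be that library and not a type, so these shares are not given as a result. The genes were therefore also compared within clusters 0, 2, 4 and 7, each with at least 100 nuclei of both libraries, a comparison chosen after the clusters had been seen. Pmepa1 was lower in all 4, with log2 ratios of -3.28, -4.29, -2.24 and -4.80. Cx3cr1 had -0.66, -2.94, -0.84 and -1.72, and Fcrls -1.47, -3.49, -1.70 and -1.78 in the same order. The mean within clusters left the median of the homeostatic list at -0.86. Cluster 3, with 66 ADWA11 nuclei, was not compared, so these values do not describe the nuclei with most microglia markers. Fcrls was lower in fibroblasts as well, at 67.5 CPM in Ctrl and 15.6 CPM in ADWA11. The part of free RNA in the values within clusters was not tested.

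**Figure D3:**
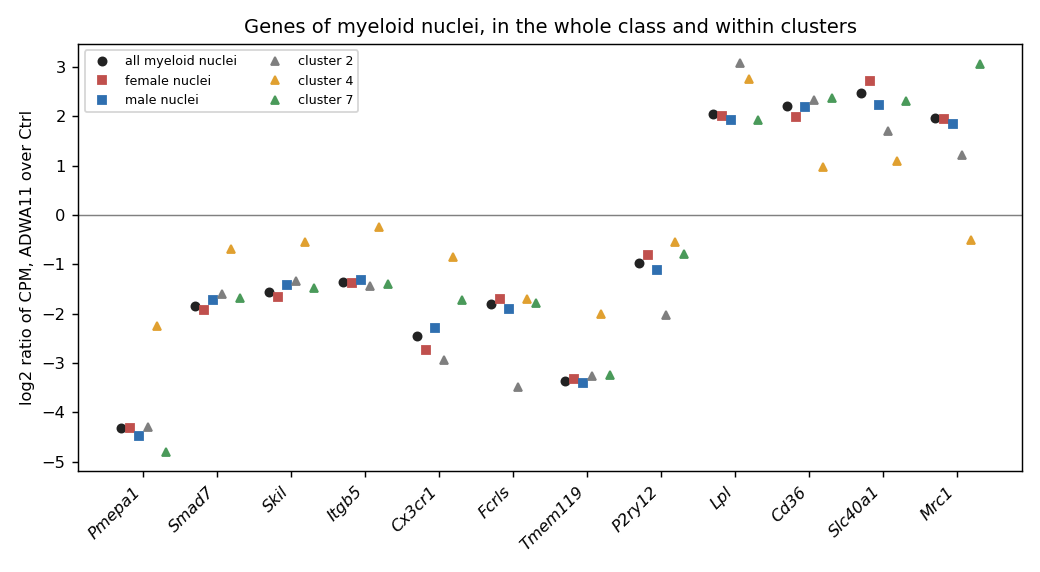
Log2 ratio of CPM, ADWA11 over Ctrl, of 12 genes in all myeloid nuclei (circles), in female and male nuclei (squares) and within clusters 2, 4 and 7 (triangles). Pmepa1 to P2ry12 lie below 0 and Lpl, Cd36 and Slc40a1 above 0 at every point, while Mrc1 is at -0.50 in cluster 4.

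Lipid handling genes were higher in 5 of 15 cases and lower in 0, with a median of 0.55. Of all genes tested in myeloid nuclei 5.8% were higher. Cd36, the scavenger receptor for oxidised lipids and fatty acids, stood at 242 CPM in Ctrl and 1108 CPM in ADWA11 (log2 ratio 2.20, 2.16 to 2.23; 1.99 in female and 2.19 in male nuclei). Lpl, which frees fatty acids from lipoproteins, stood at 238 CPM in Ctrl and 979 CPM in ADWA11 (log2 ratio 2.04, 2.00 to 2.08). Both were higher within each of clusters 0, 2, 4 and 7, Lpl with log2 ratios of 2.54, 3.07, 2.76 and 1.92. Pparg, the lipid-sensing nuclear receptor, stood at 106 CPM in Ctrl and 363 CPM in ADWA11, and Nr1h3, the oxysterol receptor LXRα, at 7.95 CPM in Ctrl and 19.6 CPM in ADWA11. Fabp4, a fatty acid carrier, had a log2 ratio of 2.26. Apoe, the main lipoprotein of brain macrophages, did not differ in this way, at 2485 CPM in Ctrl and 2238 CPM in ADWA11.

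The promoter stretches of Cd36, Pparg and Selenop, a selenium carrier, are shown because these genes were higher in ADWA11 in all 7 classes and each has a window clear of annotated exons. They are the 250 bases before the RefSeq start site in GRCm38.p6, written 5′ to 3′ on the gene's strand, in lower case with matches to the short Smad-binding box CAGAC, or GTCTG on the other strand, in capitals. None of these 3 windows overlaps an exon of GENCODE vM21. Cd36 is read from chr5:17835897-17836146 on the minus strand, with the match starting 199 bases before the start site, and Pparg from chr6:115421816-115422065 on the plus strand, at the start site farthest downstream of its 3. Which of these start sites the nuclei used was not measured. Selenop is read from chr15:3270517-3270766 on the plus strand and holds no match.
Cd36: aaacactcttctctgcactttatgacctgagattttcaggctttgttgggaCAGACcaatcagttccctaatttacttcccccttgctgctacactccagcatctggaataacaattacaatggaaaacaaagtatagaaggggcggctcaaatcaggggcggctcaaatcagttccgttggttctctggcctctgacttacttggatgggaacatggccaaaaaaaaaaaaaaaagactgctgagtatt
Pparg: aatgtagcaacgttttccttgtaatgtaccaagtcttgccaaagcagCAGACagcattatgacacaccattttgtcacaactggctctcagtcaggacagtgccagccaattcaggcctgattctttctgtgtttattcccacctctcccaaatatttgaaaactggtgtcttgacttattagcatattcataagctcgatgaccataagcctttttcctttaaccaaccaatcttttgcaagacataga
Selenop: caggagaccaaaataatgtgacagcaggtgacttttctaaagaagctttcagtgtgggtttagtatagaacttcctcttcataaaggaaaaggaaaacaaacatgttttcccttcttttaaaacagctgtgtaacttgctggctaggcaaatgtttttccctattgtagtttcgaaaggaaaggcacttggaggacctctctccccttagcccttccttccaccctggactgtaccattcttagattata
The windows shown for Cd36 and Pparg held 1 match each, and the other 2 windows of Pparg and all 3 of Selenop held 0, so that 2 of the 7 windows of these genes held a match. Of 32851 RefSeq windows of the same length 42.2% held at least 1. No RefSeq window was at hand for Lpl and Slc40a1, the other 2 of the 5 genes higher in all 7 classes, nor for Eln. Their promoters were not searched. Of the windows of the other 4 genes lower in the most classes, 2 of 4 held a match: those of Fcrls and Cx3cr1 held 2 and 1, and those of Sh2b2 and Tent5c held 0. The windows of Fcrls, Cx3cr1 and Tent5c overlap annotated exons, and that of Sh2b2 does not. A match is a run of letters and not a shown binding site. Cd36 stood above all other nuclei in the myeloid class but below them in fibroblasts. Its fibroblast level was 27.5 CPM in Ctrl and 107 CPM in ADWA11, against 173 and 779 CPM. The part of free RNA in the calls outside myeloid nuclei was not tested.

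Heme and iron genes were higher in 4 of 10 cases and lower in 0, with a median of 0.85, and of 0.46 as a mean within clusters. The share higher among all genes tested in the class was 5.8%. Cd163, also in this list, had a log2 ratio of 1.09 but a mean within clusters of -0.19. Slc40a1, the iron exporter ferroportin (chromosome 1, 45908068 to 45926523, minus strand), stood at 88.3 CPM in Ctrl and 488 CPM in ADWA11 (log2 ratio 2.47, 2.40 to 2.53; 2.71 in female and 2.23 in male nuclei), and was higher within clusters 0, 2, 4 and 7 by 1.14, 1.70, 1.08 and 2.30 on the log2 scale. Tfrc, which takes up transferrin iron, stood at 47.1 CPM in Ctrl and 177 CPM in ADWA11 and Spic, the transcription factor of iron-recycling macrophages, at 2.18 CPM in Ctrl and 10.3 CPM in ADWA11. Hmox1, which breaks down heme, stood at 114 CPM in Ctrl and 174 CPM in ADWA11, short of 2-fold. Beside these values, 5 erythroid genes summed to 5.69 CPM in Ctrl and 30.7 CPM in ADWA11 in myeloid nuclei and to 63.8 CPM in Ctrl and 1014 CPM in ADWA11 in fibroblasts, and their part in the result was not tested.

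Border macrophage genes, those of the macrophages along vessels and meninges, were higher in 4 of 10 cases, against 5.8% of all genes tested. Their median of 0.93 dropped to 0.15 as a mean within clusters. Mrc1, the mannose receptor, stood at 259 CPM in Ctrl and 1011 CPM in ADWA11 (log2 ratio 1.96, 1.93 to 2.00), with 0.54, 1.22, -0.50 and 3.07 within clusters 0, 2, 4 and 7. F13a1, a coagulation factor of monocyte-derived cells, stood at 525 CPM in Ctrl and 1109 CPM in ADWA11. Cd163, the haemoglobin scavenger receptor, had a log2 ratio of 1.09, and its mean within clusters was -0.19.

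MHC class II genes had a median of 0.62, with 2 of 9 higher, against 5.8% of all genes tested in myeloid nuclei. The median was 0.25 with clusters from log-normalised counts and 1.34 in male nuclei. Ciita, the switch of this programme, stood at 6.58 CPM in Ctrl and 23.8 CPM in ADWA11 (log2 ratio 1.85, 1.61 to 2.10), and H2-Eb1, a class II β chain, at 9.77 CPM in Ctrl and 19.9 CPM in ADWA11. All other nuclei held Ciita at 23.8 and 17.7 CPM and H2-Eb1 at 30.7 and 28.3 CPM. Dendritic markers in myeloid nuclei summed to 17.5 CPM in Ctrl and 40.8 CPM in ADWA11 and B cell markers to 58.8 CPM in Ctrl and 127 CPM in ADWA11, and their part in these values was not tested. Of 19 interferon-stimulated genes 4 were higher, Gbp2, Rsad2, Cxcl10 and Isg15, and the list median was 0.19. Isg15 rested on few UMIs and its mean within clusters was -0.52. Of 15 cytokine genes, the chemokines Ccl12, Ccl5 and Cxcl2 were higher and the cytokine Il1b lower, with no level above the 7.01 CPM of Ccl12 in ADWA11, and Cxcl2 turned to -0.85 within clusters. Tnf stood at 6.30 CPM in Ctrl and 6.07 CPM in ADWA11.

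Genes of disease- and scar-associated macrophages had a median of -0.0011, with 1 of 15 higher (Lpl) and 1 lower (Cst7, a cysteine protease inhibitor, 6.74 to 0.584 CPM from Ctrl to ADWA11). Spp1, the matrix protein osteopontin, stood at 1429 CPM in Ctrl and 1516 CPM in ADWA11, Gpnmb, a lysosomal glycoprotein of lipid-loaded macrophages, at 1883 CPM in Ctrl and 1851 CPM in ADWA11 and Trem2, their lipid receptor, at 178 CPM in Ctrl and 178 CPM in ADWA11. Among the 5 genes per direction ranked first in the class were Marco, a scavenger receptor with 0 UMIs in Ctrl and 229 in ADWA11, which is a log2 ratio of 5.41 at a floor of 3 UMIs in the Ctrl library with 5.10 as the lower end of its counting interval, Ear2, an RNase of monocytes, and Ccl6, a chemokine (5.45 to 57.6 CPM). Those ranked first as lower included Chst1, a sulfotransferase (41.1 to 1.06 CPM), Mlxipl, the glucose-sensing factor ChREBP (51.5 to 2.00 CPM) and Spint1, a protease inhibitor (4.84 to 0.112 CPM). Paqr9, Clec4b1, Capn11 and Csmd3 completed the 10. Neutrophil markers in the class summed to 396 CPM in Ctrl and 180.4 CPM in ADWA11.

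Dendritic nuclei, which prime T cells, had 173 of 5977 genes higher (2.89%) and 136 lower in ADWA11. Their 8 markers summed to 2142 CPM in Ctrl and 1980.1 CPM in ADWA11. The largest differences were in Gna14, a G protein subunit, at 349 CPM in Ctrl and 15.5 CPM in ADWA11 (log2 ratio -4.49, -5.32 to -3.77), and in Cdh1, the adhesion molecule E-cadherin, at 115 CPM in Ctrl and 5.80 CPM in ADWA11 (log2 ratio -4.31, -5.79 to -3.14). Arhgap24, which restrains the GTPase Rac, stood at 1733 CPM in Ctrl and 408 CPM in ADWA11, against 919 and 539 CPM in all other nuclei. Naaa, a lysosomal amidase of fatty acid amides, was higher at 96.6 CPM in Ctrl and 335 CPM in ADWA11 (log2 ratio 1.79, 1.44 to 2.16), and so were Lrrc4 (24.7 to 98.7 CPM; all other nuclei 41.9 and 71.4 CPM) and the inhibitory receptor Lilr4b (115 to 355 CPM; all other nuclei 117 and 222 CPM). The MHC class II list stayed near 0, with a median of 0.13 and 0 of 9 genes past 2-fold. The class had 166 and 186 nuclei, too few to separate dendritic subsets here, so a shift between subsets and a change within one cannot be told apart.

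T and NK lymphocytes, with 144 and 170 nuclei, had 163 of 5973 genes higher (2.73%) and 186 lower. Itgae, the αE chain of CD103 that TGFβ induces on tissue-resident lymphocytes (chromosome 11, 73090583 to 73147446, plus strand), stood at 139 CPM in Ctrl and 24.2 CPM in ADWA11 (log2 ratio -2.53, -3.29 to -1.82; -2.39 in female and -1.97 in male nuclei). All other nuclei had Itgae at 6.92 and 4.32 CPM. The class was not split into T, NK and other subsets. A shift between subsets and a change within one therefore cannot be told apart here. Klf2, the factor that drives exit from tissue, was higher at 19.7 CPM in Ctrl and 105 CPM in ADWA11 (log2 ratio 2.41, 1.54 to 3.42), with 2.15 in female and 0.31 in male nuclei. The rest of the 11 measured residency and egress genes stayed within 2-fold, with a list median of -0.065, among them Cxcr6, a chemokine receptor of resident cells (223 to 166 CPM), and S1pr1, the egress receptor (44.2 to 65.6 CPM).

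Of 8 measured cytotoxic and type 1 genes, Ccl5, a T cell chemokine, and Gzma, the protease granzyme A, were higher at 170.4 CPM in Ctrl and 344 CPM in ADWA11 and at 29.5 CPM in Ctrl and 89.8 CPM in ADWA11. Both went the opposite way in the sexes, Ccl5 with 1.14 in female and -1.95 in male nuclei and Gzma with 2.03 in female and -2.39 in male nuclei, where ADWA11 held 0 UMIs of Gzma in male nuclei and the ratio is set at the floor of 3 UMIs, and the list median of 0.42 was -1.40 in male nuclei. Tbx21, the master factor of type 1 lymphocytes, stood at 119.6 CPM in Ctrl and 196 CPM in ADWA11, and Eomes, its relative in NK and memory cells, at 65.5 CPM in Ctrl and 40.3 CPM in ADWA11. The male values rest on 40 and 39 nuclei.

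Only 5 of 12 regulatory T cell genes had enough UMIs. Tnfrsf9, the co-stimulatory receptor 4-1BB, was higher (13.1 to 49.5 CPM from Ctrl to ADWA11), Ctla4, the checkpoint receptor, stood at 65.5 CPM in Ctrl and 64.5 CPM in ADWA11, and Icos, a co-stimulatory receptor, at 209.8 CPM in Ctrl and 113 CPM in ADWA11. Among the genes ranked first, Clnk, an adaptor of innate-like lymphocytes, stood at 609.6 CPM in Ctrl and 191 CPM in ADWA11 (log2 ratio -1.67, -1.95 to -1.41; -2.33 in female and -0.16 in male nuclei). Lax1, an adaptor that dampens antigen receptor signals, stood at 205 CPM in Ctrl and 74.8 CPM in ADWA11. Skil, the third, stood at 169 CPM in Ctrl and 59.9 CPM in ADWA11, against 137 and 60.0 CPM in all other nuclei. The higher ones included Brip1, a DNA repair gene, at 29.5 CPM in Ctrl and 92.1 CPM in ADWA11 against 41.6 and 60.5 CPM in all other nuclei, and the hexokinase Hk3 at 14.7 CPM in Ctrl and 73.7 CPM in ADWA11 against 43.6 and 72.9 CPM. Both stood below all other nuclei in Ctrl. A level at least that of all other nuclei in ADWA11 was a condition for ranking them. Myeloid markers in the lymphocyte class summed to 3664 CPM in Ctrl and 3658 CPM in ADWA11, and fibroblast markers to 1018 CPM in Ctrl and 626 CPM in ADWA11.

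Endothelial nuclei, which line the vessels, had 402 of 8604 genes higher (4.67%) and 130 lower (1.51%). TMM scaling shifted the median of this class by 0.11 on the log2 scale, more than in any other class, and ratios below are on the CPM scale. Adhesion genes and Lrg1 were among those lower. Vwf, the platelet-binding von Willebrand factor, stood at 463 CPM in Ctrl and 204 CPM in ADWA11 (log2 ratio -1.18, -1.35 to -1.01; -1.62 in female and -0.96 in male nuclei). Selp, the leukocyte-rolling receptor P-selectin, stood at 29.6 CPM in Ctrl and 7.54 CPM in ADWA11 (log2 ratio -1.97, -2.89 to -1.14), and Lrg1, a secreted modifier of endothelial TGFβ signalling, at 84.8 CPM in Ctrl and 20.6 CPM in ADWA11 (log2 ratio -2.04, -2.57 to -1.54). Vwf and Selp were the 2 of 7 measured adhesion genes that were lower, and 0 were higher, while Pecam1, the junction protein of all endothelium, stood at 773 CPM in Ctrl and 759.8 CPM in ADWA11. Cacna1e, a calcium channel subunit (384 to 109.6 CPM), and Mctp1 (624 to 211 CPM; all other nuclei 544 and 387 CPM) were also ranked first among the lower genes.

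Angiogenic genes were mixed. Angpt2, which loosens vessels for sprouting, stood at 45.1 CPM in Ctrl and 122 CPM in ADWA11 (log2 ratio 1.43, 1.08 to 1.79), and Apln, a peptide of sprouting tip cells, at 12.1 CPM in Ctrl and 39.2 CPM in ADWA11 (log2 ratio 1.69, 1.03 to 2.41), and both were higher in each sex. Cxcr4 was the third of 14 measured that was higher, from few UMIs. The VEGF receptors Kdr and Flt1 stood at 506 CPM in Ctrl and 446 CPM in ADWA11 and at 1857 CPM in Ctrl and 1296 CPM in ADWA11, and the list median of 0.21 turned to -0.13 in male nuclei.

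Barrier genes had a median of -0.21, -0.79 in female and 0.40 in male nuclei. Apcdd1, a Wnt inhibitor of barrier endothelium, was lower (118 to 54.3 CPM; -1.49 in female and -0.88 in male nuclei), and Cldn5, the tight-junction claudin, stood at 237 CPM in Ctrl and 347 CPM in ADWA11. Among 7 BMP and TGFβ targets, Smad6 was lower (91.1 to 39.7 CPM), and Id1, a BMP target, stood at 29.1 CPM in Ctrl and 45.3 CPM in ADWA11. Markers of myeloid cells in the endothelial class summed to 782 CPM in Ctrl and 1082 CPM in ADWA11 and those of oligodendrocyte precursors to 266 CPM in Ctrl and 492 CPM in ADWA11. Mural nuclei and mature oligodendrocytes were too few for gene values, under 100 in each library, so pericyte and myelin genes are not described.

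Astrocytes had 196 of 9391 genes higher (2.09%) and 268 lower. Reactive genes stayed near Ctrl, with a median of -0.22 and 1 of 13 past 2-fold. Gfap, the intermediate filament of reactive astrocytes, stood at 557 CPM in Ctrl and 567 CPM in ADWA11 (log2 ratio 0.025, -0.09 to 0.14), and Vim, its partner, at 149 CPM in Ctrl and 128 CPM in ADWA11. S1pr3, a lysophospholipid receptor raised in reactive astrocytes, was lower at 97.7 CPM in Ctrl and 48.3 CPM in ADWA11 (log2 ratio -1.02, -1.35 to -0.68; -1.46 in female and -1.22 in male nuclei). Osmr, the oncostatin M receptor (159.8 to 81.6 CPM), and Serpina3n, a secreted protease inhibitor (81.0 to 45.0 CPM), were short of 2-fold.

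Among homeostatic astrocyte genes, Slc4a4, the bicarbonate cotransporter, was higher at 424 CPM in Ctrl and 858 CPM in ADWA11 (log2 ratio 1.02, 0.90 to 1.13; 0.87 in female and 0.93 in male nuclei), and Gjb6, the gap junction protein connexin 30, at 10.3 CPM in Ctrl and 23.8 CPM in ADWA11 from few UMIs. Trpm3, an ion channel, stood at 101 CPM in Ctrl and 825 CPM in ADWA11, but with 4.42 in female and -0.59 in male nuclei and at 466 and 2014 CPM in all other nuclei, above the astrocyte level in both libraries. The glutamate transporters Slc1a2 and Slc1a3 stood at 449 CPM in Ctrl and 486 CPM in ADWA11 and at 832 CPM in Ctrl and 739.8 CPM in ADWA11, and the water channel Aqp4 at 541 CPM in Ctrl and 680.2 CPM in ADWA11. Ranked first among lower genes were Grik1, a kainate receptor subunit, at 503 CPM in Ctrl and 100.3 CPM in ADWA11 (log2 ratio -2.33, -2.53 to -2.13; all other nuclei 28.1 and 15.5 CPM), Hs3st3b1, which sulfates heparan chains (28.6 to 4.02 CPM), and Ifitm10 (151 to 56.0 CPM; all other nuclei 124 and 26.7 CPM). Ranked first among higher genes were Wdr17 (33.5 to 123 CPM), Syt7, a calcium sensor of exocytosis (16.2 to 59.6 CPM), and Sorbs2os, an antisense RNA. Oligodendrocyte precursor markers summed to 5308 CPM in Ctrl and 4791 CPM in ADWA11 in this class, the 9 astrocyte markers to 3702 CPM in Ctrl and 4608 CPM in ADWA11, and fibroblast markers to 1465 CPM in Ctrl and 791 CPM in ADWA11.

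Oligodendrocyte precursors, with 529 and 1142 nuclei, had 467 of 13237 genes higher (3.53%) and 461 lower. Fstl4, a follistatin-like secreted protein (chromosome 11, 52764634 to 53188538, plus strand), stood at 611 CPM in Ctrl and 29.0 CPM in ADWA11 (log2 ratio -4.40, -4.55 to -4.25; -3.93 in female and -5.07 in male nuclei), against 27.7 and 8.69 CPM in all other nuclei. Serpina3n, which reactive glia secrete, stood at 72.7 CPM in Ctrl and 5.93 CPM in ADWA11 (log2 ratio -3.62, -3.97 to -3.27; -3.04 in female and -4.50 in male nuclei). The cadherin Cdh8 (110.3 to 9.58 CPM), Clca3a1 (28.2 to 2.48 CPM) and Ermard (655 to 101 CPM) completed the lower set. The same sign in both sexes was a condition for being ranked. The higher set was Dach2, a transcription cofactor (61.3 to 195 CPM), Bche, the enzyme butyrylcholinesterase (17.6 to 59.8 CPM), Depdc1a, a mitotic gene (12.2 to 46.5 CPM), Scin, which severs actin (1.26 to 10.9 CPM), and Sox5os4, an antisense RNA (log2 ratio 2.23). Without a stated use of strand in counting, reads of an antisense RNA and of its partner gene cannot be told apart.

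Few identity genes of the lineage passed 2-fold. Of 14 precursor genes 1 was higher and 0 lower, with a median of 0.39. Pdgfra, the growth factor receptor that defines precursors, stood at 224 CPM in Ctrl and 204 CPM in ADWA11 and Sox10, the lineage factor, at 319 CPM in Ctrl and 234 CPM in ADWA11. Gpr17, a receptor of committed precursors, was higher at 27.3 CPM in Ctrl and 69.4 CPM in ADWA11 (log2 ratio 1.35, 1.08 to 1.62; 1.12 in female and 1.41 in male nuclei). It was the only one of the 12 committed precursor genes past 2-fold, and the others pointed mostly the other way, with a list median of -0.34. Enpp6, an enzyme of newly forming oligodendrocytes, stood at 211 CPM in Ctrl and 157 CPM in ADWA11, Myrf, the master factor of myelination, at 37.2 CPM in Ctrl and 25.8 CPM in ADWA11 and Bcas1, an early myelination gene, at 1564 CPM in Ctrl and 1719.9 CPM in ADWA11. Median UMIs per nucleus in this class were 7169 in Ctrl and 10571.5 in ADWA11, and called doublets 16.6% and 19.9%.

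Cell cycle genes were compared in all 7 classes. Their median was 1.96 in endothelial nuclei, where 15 of 17 measured were higher, 0.69 in oligodendrocyte precursors (6 of 20), 0.63 in T and NK nuclei (5 of 15), 0.58 in fibroblasts (2 of 20), 0.53 in myeloid nuclei (0 of 20), 0.22 in dendritic nuclei (1 of 16) and -0.16 in astrocytes (0 of 15). No cell cycle gene was lower past 2-fold in any class. The myeloid median was 0.34 in male nuclei and 0.29 as a mean within clusters, and that of oligodendrocyte precursors 0.43 with clusters from log-normalised counts. In fibroblasts 4.66% of all 15734 genes tested were higher. The share was 5.8% in myeloid, 4.67% in endothelial and 3.53% in oligodendrocyte precursor nuclei. It was 2.89% in dendritic, 2.73% in T and NK and 2.09% in astrocyte nuclei.

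In endothelial nuclei Top2a, the topoisomerase of dividing cells, stood at 63.0 CPM in Ctrl and 224 CPM in ADWA11 (log2 ratio 1.83, 1.55 to 2.13), Cenpf, a kinetochore protein, at 11.1 CPM in Ctrl and 83.0 CPM in ADWA11 and Kif15, a spindle motor, at 30.5 CPM in Ctrl and 136 CPM in ADWA11 against 54.6 and 81.9 CPM in all other nuclei. The repair gene Bard1, ranked among the first with Kif15, stood at 6.30 CPM in Ctrl and 38.2 CPM in ADWA11 against 14.3 and 27.2 CPM. Both were below all other nuclei in Ctrl, and a level at least as high in ADWA11 was a condition of the ranking. The list median was 0.85 in female and 3.33 in male nuclei. These UMIs came from few nuclei: the 10 nuclei with the most held 46.7% of 3269 list UMIs in ADWA11 and 63.9% of 1071 in Ctrl, and 4 of the 10 in each library were called doublets. Without any called doublet the median was 2.46. In T and NK lymphocytes the 10 nuclei with the most held 59.2% of 1500 list UMIs in ADWA11 and 68.3% of 635 in Ctrl. Those shares were 61.6% and 68.9% in dendritic and 61.1% and 65.3% in astrocyte nuclei. In the larger class of oligodendrocyte precursors the top 10 nuclei held 1102 of 3675 list UMIs in Ctrl and 2267 of 18616 in ADWA11. Ect2, which sets the plane of cell division, stood at 27.9 CPM in Ctrl and 70.4 CPM in ADWA11 (log2 ratio 1.33, 1.07 to 1.61; 1.17 in female and 1.46 in male nuclei).

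**Figure D4:**
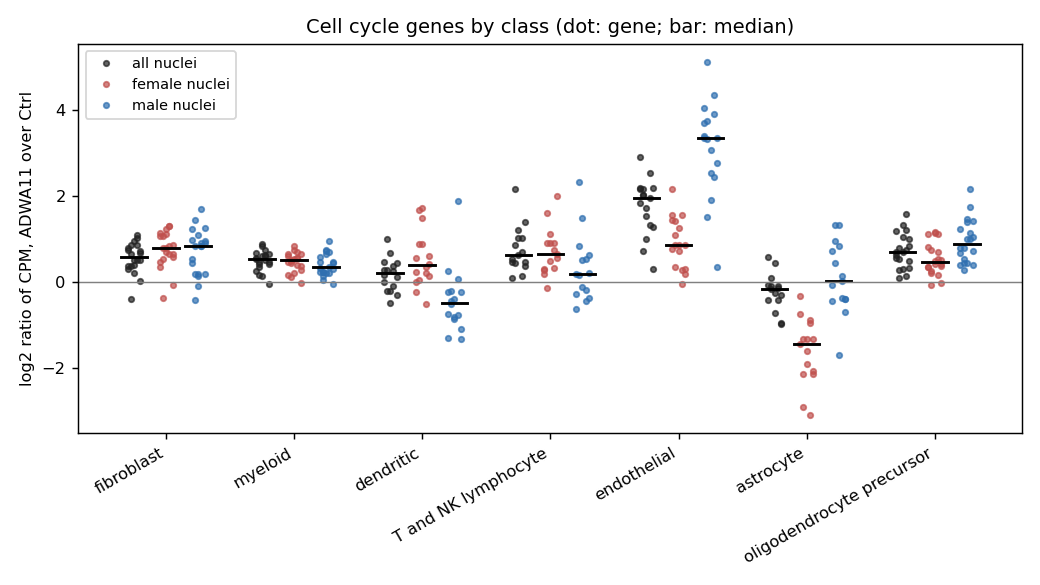
Log2 ratio of CPM, ADWA11 over Ctrl, of each measured cell cycle gene (dots) in 7 classes, for all, female and male nuclei, with bars at the medians. The endothelial medians are 1.96 in all, 0.85 in female and 3.33 in male nuclei, and the astrocyte medians are -0.16, -1.44 and 0.024.

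**Figure D5:**
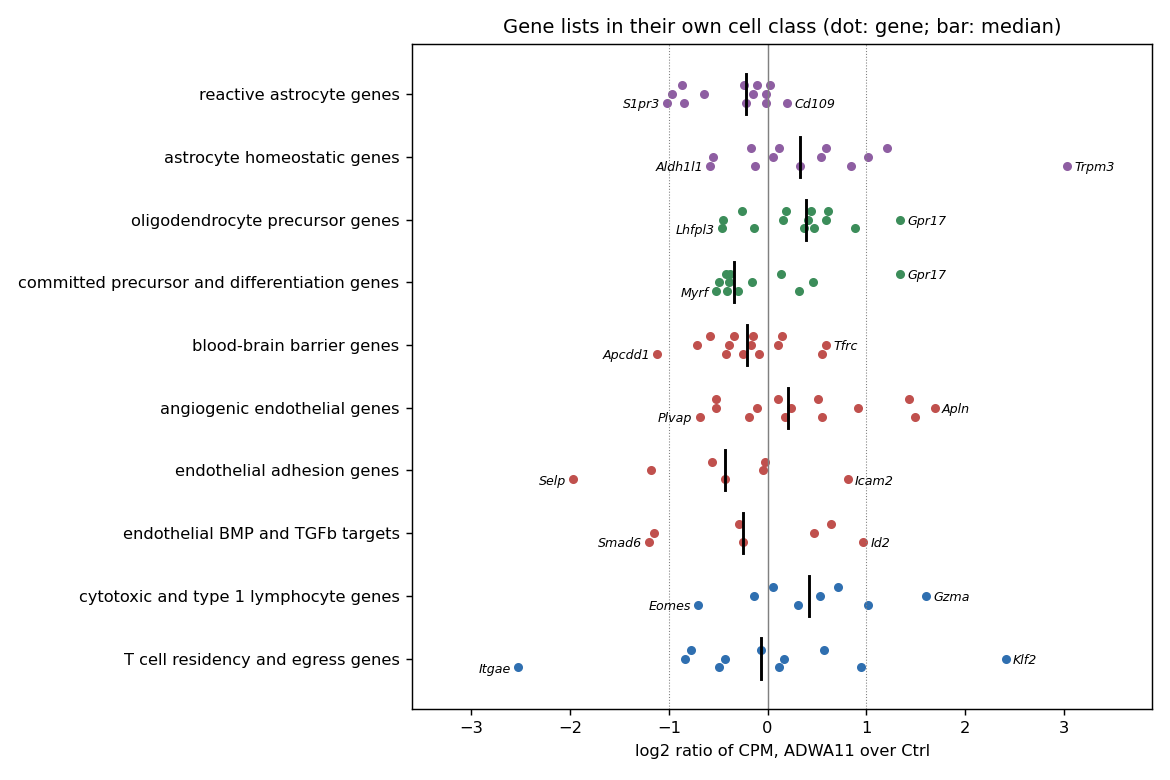
Log2 ratio of CPM, ADWA11 over Ctrl, of each measured gene (dots) of 10 lists, each in its own class, with bars at list medians and the outermost genes named; dotted lines mark 2-fold. The medians lie between -0.43 (endothelial adhesion) and 0.42 (cytotoxic lymphocyte genes), and single genes such as Itgae at -2.53 and Klf2 at 2.41 stand far outside them.

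Fibroblasts, which build the matrix of the scar, had 733 of 15734 genes higher and 509 (3.24%) lower. Eln, the elastin gene, stood at 943 CPM in Ctrl and 50.5 CPM in ADWA11 (log2 ratio -4.22, -4.30 to -4.15; -4.41 in female and -3.98 in male nuclei). Ranked with it among lower genes were Aldh1a3, which makes retinoic acid (27.2 to 2.73 CPM), Acan, the cartilage proteoglycan aggrecan (50.7 to 6.65 CPM), Erg, a transcription factor of the ETS family (167 to 26.0 CPM), and Anxa8. Ranked first among higher genes were Mmp3, the protease stromelysin 1, at 9.36 CPM in Ctrl and 111 CPM in ADWA11 (log2 ratio 3.57, 3.37 to 3.77; 4.27 in female and 2.83 in male nuclei), Col6a6, a collagen VI chain (7.26 to 49.3 CPM), Cxcl5, a neutrophil chemokine with 4 UMIs in Ctrl and 289 in ADWA11 (0.172 to 8.58 CPM), Nwd2 and Adm. Of 15 proteases and inhibitors Mmp3 and Adamts1 (67.0 to 157 CPM) were higher and 0 lower. Of 20 TGFβ-responsive matrix genes, 6 were lower and 0 higher, with a median of -0.54. Beside it, the 8 fibroblast markers summed to 7765 CPM in Ctrl and 5945 CPM in ADWA11 in the class, microglia markers to 109 CPM in Ctrl and 48.7 CPM in ADWA11 and erythroid genes to 63.8 CPM in Ctrl and 1014 CPM in ADWA11, and their part in the result was not tested.

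Of the signals from fibroblasts to leukocytes, Ccl2 (0.687 to 3.35 CPM), Ccl7 (0.558 to 2.11 CPM), Cxcl10 (1.16 to 4.75 CPM) and Cxcl1 (0.816 to 1.63 CPM) were higher from low levels, and in the other nuclei Ccl2 stood at 5.15 and 7.89 CPM. Il33, an alarmin of stromal cells, stood at 160.4 CPM in Ctrl and 86.9 CPM in ADWA11 and Il6 at 1.25 CPM in Ctrl and 0.742 CPM in ADWA11, both short of 2-fold. The other members of this list are not described here, and 4.66% of all genes tested in fibroblasts were higher. The fibroblast clusters were filled unevenly too. Cluster 1 held 1279 Ctrl and 957 ADWA11 nuclei, 16.2% and 8.77% of all nuclei of each library. Cluster 6 held 465 and 1106, 5.88% and 10.1%. Eln, Ltbp2, Acan and Erg were among the leading genes of cluster 1. A class level thus joins differences within and between clusters, and fibroblast genes were not compared within clusters.

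Lists of general state were described in every class. Immediate early genes had medians from -0.41 in astrocytes to 0.93 in dendritic nuclei, where Junb and Atf3 were higher and Jun lower. Glucocorticoid-responsive genes had medians from -0.75 in T and NK nuclei (-0.50 in female and 0.49 in male nuclei, 5 genes measured) to 0.42 in fibroblasts, and the metal-binding genes Mt1 and Mt2 were higher in astrocytes, Mt1 at 27.5 CPM in Ctrl and 77.9 CPM in ADWA11 (2.45 in female and 1.27 in male nuclei). Hypoxia and glycolysis genes ran from -0.13 in astrocytes to 0.32 in dendritic nuclei, with Hk2, the inducible hexokinase, lower in astrocytes (62.1 to 23.8 CPM), oligodendrocyte precursors (40.8 to 19.0 CPM) and endothelial nuclei (36.3 to 18.1 CPM; 1.27 in female and -0.64 in male nuclei). Heat shock genes had medians between -0.55 and -0.092, with Hspa1a higher in fibroblasts (0.472 to 1.42 CPM) but -1.89 in female nuclei.

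The last comparison asked which differences recurred across classes. A set of 32 genes was higher and 51 were lower in at least 4 of the 7 classes. Predicted, ribosomal protein, haemoglobin, mitochondrial and sex-linked genes were left out of this count. The share among all genes measured in that many classes was not computed. Counting only classes in which a gene stood at least as high as in all other nuclei left 0 genes in each direction. Outside the class in which a gene stands highest, those nuclei include that class, so a low count was largely set in advance. Cd36, Lpl, Slc40a1, Pparg and Selenop were higher in all 7, and Fcrls and Tent5c, a poly(A) polymerase of immune cells, were lower in all 7. Eln, Cx3cr1 and Sh2b2 were lower in 6. Several of these calls in small classes did not hold in each sex: in astrocytes Slc40a1 had 2.17 in female and -0.96 in male nuclei and Pparg -0.18 in female and 1.73 in male nuclei, Tent5c had -0.71 in female and 0.31 in male nuclei in T and NK lymphocytes, Cx3cr1 had -0.87 in female and 0.29 in male nuclei in the endothelial class, and Sh2b2 in female astrocytes was near 0. Eln stood highest in fibroblasts and the others in myeloid nuclei of both libraries, except that dendritic nuclei stood higher for Pparg in Ctrl and for Cx3cr1 and Sh2b2 in ADWA11. Selenop stood at 158 CPM in Ctrl and 913 CPM in ADWA11 in myeloid nuclei and at 87.2 CPM in Ctrl and 233 CPM in ADWA11 in endothelial nuclei. In the endothelial class Cd36 stood at 23.7 CPM in Ctrl and 251 CPM in ADWA11, below the 121 and 563 CPM of all other nuclei. The part of free RNA in these shared differences was not tested.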

How the data were processed

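Nuclei of dissected photothrombotic lesions were sequenced with 10x Genomics 3′ v3.1 chemistry. The deposited matrices hold raw UMI counts per gene (32285 genes) and barcode, which the authors made with Cell Ranger against mm10, version 7.2.0 per the file headers and 7.1.0 per the labels' notes. No column was left unmapped (0).

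Barcodes with at least 1000 UMIs and under 5% mitochondrial UMIs were kept. Both libraries were clustered together (SCTransform residuals without the genes of the 33 lists, 30 components, resolution 0.5; Seurat 5.3.0, sctransform 0.4.2, Matrix 1.6.5, R 4.3.3), and clusters were named from markers raised at least 2-fold and found in at least 5% of nuclei, with at least 3 raised, a rule chosen with the clusters in view. Doublets were called against 2 simulated doublets per nucleus at 0.8% per 1000 barcodes and were kept. Class shares, gene counts, list medians and ratios of named genes were repeated without them, and values within myeloid clusters and of genes shared by classes were not. UMIs were summed per class and library (Python 3.11.15, numpy 2.4.6, pandas 2.3.3, scipy 1.17.1, scikit-learn 1.9.0). Genes with at least 50 UMIs in both libraries together were compared in classes with at least 100 nuclei per library, with exact 95% binomial intervals (Clopper-Pearson) of shares and of ratios. A gene absent from 1 library was set to a floor of 3 UMIs. TMM factors came from edgeR 4.0.16. The computation was tested on simulated counts.

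Named genes were the first 5 per direction in each class (3 in classes under 500 nuclei), ranked by the interval bound nearest 0, with the same sign in both sexes, and, in the library where the gene is higher, no nucleus holding over 10% of its UMIs and a level at least that of all other nuclei. Members of the lists could be named too. Some genes that these rules name are not reported here. Members and lists were chosen with earlier results of these data known. Coordinates are those of GENCODE vM21 (mm10) and promoter windows those of RefSeq for GRCm38.p6.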

Additional observations from a re-analysis of the deposited data

Results flagged for a closer look

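Among the named genes and list members past 2-fold in a class, 3 went in opposite directions in the sexes with the counting interval of each sex leaving out 0, and the difference between the sexes was not tested, since each sex is 1 mouse per library. In T and NK lymphocytes the log2 ratio of Ccl5 was 1.14 in female and -1.95 in male nuclei. Gzma in the same class had 2.03 in female and -2.39 in male nuclei, where ADWA11 held 0 UMIs and the ratio is set at the floor of 3 UMIs. The class held 56 female and 40 male nuclei in Ctrl, and 83 and 39 in ADWA11. Trpm3 in astrocytes had 4.42 in female and -0.59 in male nuclei, and its level in all other nuclei was 466 CPM in Ctrl and 2014 CPM in ADWA11.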

How the results depend on the processing

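With 1 library per side no value here carries a measure of differences between mice, and depth limits the small classes most: dendritic, lymphocyte, endothelial and astrocyte counts shrink with a higher UMI limit. No paired analysis was possible because each side holds 1 library and no test was run. Of the values recomputed for shares, gene counts, list medians, and named or listed genes, 1734 stayed within the counting interval of the reported value (list medians within the median bounds of their members, counts of genes within 1.5 times), 522 moved further, and 23 whose interval had left out 0 changed sign. Values by sex of genes shared by classes are outside these counts where the gene is neither named nor listed in that class, and some of them changed sign. The cause was not tested. Values in 1 sex alone leave out 1 mouse of each library, as far as the calls are right, and also all nuclei without a sex call. The latter were 25.8% of Ctrl and 20.6% of ADWA11 nuclei. Where a value changed sign, the value as reported follows in parentheses.

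Counts of genes higher and lower at 1.5-fold were 1772 and 1106 in fibroblasts, 1860 and 1417 in myeloid, 491 and 415 in dendritic, 462 and 428 in T and NK, 922 and 347 in endothelial, 592 and 842 in astrocyte and 1007 and 1332 in oligodendrocyte precursor nuclei. With at least 200 UMIs they were 303 and 290, 458 and 360, 29 and 25, 24 and 29, 75 and 44, 45 and 85, and 154 and 223 in the same order. With no limit they were 1140 and 806 in fibroblasts, 465 and 402 in dendritic, 414 and 600 in T and NK, 923 and 327 in endothelial and 505 and 646 in astrocyte nuclei, with 1057 lower in myeloid and 834 lower in oligodendrocyte precursor nuclei.

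In female nuclei alone the log2 share ratios were -0.21 for fibroblasts, 0.45 for oligodendrocyte precursors and -0.83 for neurons. Counts lower were 301 in fibroblasts, 110 in T and NK, 165 in astrocyte and 273 in oligodendrocyte precursor nuclei, and 198 were higher in endothelial nuclei. List medians were -0.66 for matrix and 0.80 for cell cycle genes in fibroblasts, -0.99 for homeostatic microglia genes, 0.85 for endothelial cell cycle genes and -0.21 for ligands in oligodendrocyte precursors. Changes of sign were 0.25 (-0.82) for TGFβ receptors and 0.011 (-1.02) for Tgfbr1 in astrocytes, 1.27 (-1.01) for Hk2 and -0.040 (1.96) for Hmmr in endothelial nuclei, -1.89 (1.59) for Hspa1a in fibroblasts and 0.34 (-1.88) for Ltbp2 in oligodendrocyte precursors.

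In male nuclei alone the share ratios were 0.87 for oligodendrocyte precursors, -3.78 for neurons and 4.08 for osteoblast-like nuclei. Counts higher were 562 in myeloid, 115 in dendritic, 56 in T and NK (55 lower), 177 in endothelial and 118 in astrocyte nuclei (147 lower). Medians were 0.84 for fibroblast, 0.34 for myeloid and 3.33 for endothelial cell cycle genes, 0.65 for border macrophage genes, 1.34 for MHC class II genes and -1.05 for ligands in oligodendrocyte precursors. Changes of sign were 0.035 (-0.26) for αv integrins in fibroblasts and 0.035 (-0.62) in dendritic nuclei, -1.40 (0.42) for cytotoxic and 0.49 (-0.75) for glucocorticoid-responsive genes in T and NK nuclei, 0.40 (-0.21) for barrier and -0.13 (0.21) for angiogenic genes, -0.034 (0.33) for homeostatic astrocyte genes, -0.50 (1.00) for Aspm in dendritic nuclei, -1.95 (1.01) for Ccl5, -2.39 (1.61) for Gzma at the floor, with 0 UMIs in ADWA11, and 0.49 (-1.42) for Zbtb16 in T and NK nuclei, and -0.59 (3.03) for Trpm3 in astrocytes.

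Clustering of log-normalised counts gave no osteoblast-like class, share ratios of -0.43 (-0.66 to -0.20) for astrocytes and 0.94 for oligodendrocyte precursors, 254 genes higher and 109 lower in T and NK nuclei, and medians of 0.25 for MHC class II, -0.058 (0.42) for cytotoxic and 0.43 for oligodendrocyte precursor cell cycle genes. Without called doublets the neuron ratio was -5.19, the αv integrin median in fibroblasts 0.035 (-0.26) and the endothelial cell cycle median 2.46. The study's percentile limits gave share ratios of -0.20 for fibroblasts and 0.13 for myeloid nuclei and an MHC class II median of 0.82. The mean of CPM per nucleus gave a fibroblast cell cycle median of 0.79 and 316 genes lower in T and NK nuclei.

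Of the alternatives chosen after seeing the data, means within myeloid clusters gave -0.86 for homeostatic, 0.15 for border macrophage, 0.80 for MHC class II, 0.63 for lipid, 0.46 for heme and iron and 0.29 for cell cycle genes, with Cd163 at -0.19 (1.09), Cxcl2 at -0.85 (1.84) and Isg15 at -0.52 (1.24). Counting only classes in which a gene stood at least as high as elsewhere left 0 shared genes higher and 0 lower, where the nuclei compared with always include the large class in which a gene stands highest.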
